A study of Mus musculus with 16 samples.

Results

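The comparison described here set RAW264.7 cells that received both treatments, an siRNA against Cebpb and then isoproterenol, against the same cells with a control siRNA and no isoproterenol. Libraries were taken by their labels, 4 with both treatments and 4 controls, which are 8 of the 16 libraries of the series. Genes were taken if they rose above the floor of the deposited values in at least 4 of those 8 libraries, which left 10825 of 52636 gene entries. RAW264.7 is a mouse macrophage-like tumour cell line that grows continuously. All cells in both groups were transfected with 25 nM siRNA by lipofection and kept for 24 h before stimulation. A single siRNA product was directed against Cebpb, and neither the dose nor the duration of isoproterenol is stated in the sources used here. The labels give 2 experiments with 2 libraries per group in each. RNA was sequenced from the 3′ end, so 1 read stands for about 1 transcript whatever its length.

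C/EBPβ is a leucine zipper transcription factor that macrophages use for both inflammatory and alternative (M2) programmes, and its own gene responds to cAMP through the factor CREB. Isoproterenol is an agonist of β-adrenergic receptors, which act through Gs and adenylyl cyclase to raise cAMP and to switch on protein kinase A. The title of the series asks about C/EBPβ and M2 genes in cells stimulated in this way. Since the groups differ by 2 treatments, the comparison gives their net effect and by itself assigns no gene to either of them. The libraries with each treatment alone are therefore set beside it where they help.

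Depth was 13.7 to 22.8 M reads per library, of which 8.60 to 14.3 M fell on genes, and the floor of 1 RPM (reads per 10⁶ sequenced reads) stood for 13 to 22 reads. A 1st principal component with 76.8% of the variance held all control libraries between −38.5 and −36.2 and all libraries with both treatments between 35.2 and 38.9. The 2nd, with 10.9%, separated the experiments. Mitochondrial rRNA was 1.71 times as high with both treatments (47358 ± 6690 against 27750 ± 1936 RPM, SD, n = 4 each) and mitochondrial mRNA 1.21 times (6283 ± 295 against 5174 ± 251 RPM). Each gave p = 0.0286 in an exact two-sided permutation test, the smallest that 4 against 4 libraries allow, and 0.0714 after adjustment over 10 library measures. All 10 macrophage markers were present in every group of the comparison, from Adgre1 at 3.70 ± 0.396 RPM in the control to Lyz2 at 656 ± 155 RPM. Of 10 fibroblast, 9 epithelial, 12 T and NK cell, 8 B cell, 11 neutrophil and 9 dendritic cell markers, 0, 0, 1, 1, 1 and 2 reached the test. Summed levels were 16.6 to 22.8 RPM in the control and 4.82 to 7.90 RPM with both treatments for B cell markers (all of it Ighm), and 9.35 to 10.6 RPM in the control and 4.25 to 7.73 RPM with both treatments for dendritic cell markers. They were 3.83 to 5.67 RPM in the control and 2.40 to 3.51 RPM with both treatments for T and NK cell markers. Neutrophil markers summed to 2.28 to 4.56 RPM in the control, fibroblast markers to at most 1.16 RPM and epithelial markers to 0, and all 3 were at 0 with both treatments. The defining genes Col1a1, Epcam, Cd3e, Cd79a and Ly6g were listed at 0 in all 8 libraries. Of the tested ones Lck (−0.79), Ighm (−1.66), Batf3 (−2.19) and S100a8 fell. The part of mitochondrial RNA and of these markers in the gene results was not tested.

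Cebpb (ENSMUSG00000056501.3, chromosome 2, 167688915 to 167690418, plus strand), the gene the siRNA was directed at, stood at 74.5, 61.3, 81.4 and 87.3 RPM in the control libraries, given here and below in the order of replicates 1 and 2 of experiment 1 and then of experiment 2. With both treatments it stood at 28.5, 27.6, 25.8 and 23.9 RPM. The groups did not overlap, and the log2 fold change was −1.48 ± 0.09 (SE, limma with Benjamini-Hochberg adjustment, adjusted p = 3.69e-11), a 2.79-fold lower level. Beside the control, Cebpb stood at log2 −1.73 with the siRNA alone and at 0.25 with isoproterenol alone, and the latter did not pass the test.

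The net effect reached most of the genes measured. Of the 10825 genes, 3651 (33.7%) were higher and 3508 (32.4%) lower with both treatments, 66.1% in all, at an adjusted p under 0.05. By at least 2-fold, 641 genes (5.92%) rose and 879 (8.12%) fell, and by at least 4-fold 78 and 122. The calls include 89 higher genes at 0 in all controls and 51 lower genes at 0 in all libraries with both treatments. The median change of a called gene was log2 0.58 in size. In 7148 of the 7159 called genes the sign was the same in both experiments, and 33 genes differed between the experiments in the size of the effect. The 4 libraries of one group all lay above the 4 of the other for 51.5% of genes. The shares of this paragraph are the background for every count of genes below. Log2 values are differences between groups, and RPM values are levels.

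**Figure D1:**
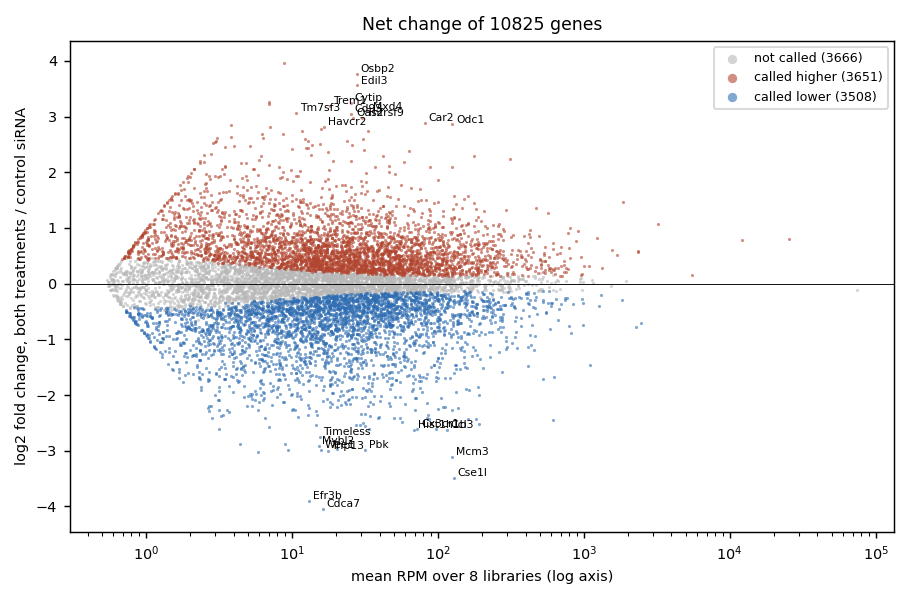
Log2 fold change with both treatments (vertical axis) against the mean RPM over the 8 libraries (horizontal, log axis) for 10825 genes, with the 12 largest increases and decreases of genes at 10 RPM or more named. Called genes lie on both sides at every level, 3651 higher and 3508 lower, and genes near the floor are limited to small differences by it.

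At a mean level of 10 RPM or more, the largest increase was that of Osbp2 (ENSMUSG00000020435.17, chromosome 11, 3703731 to 3863903, minus strand), which encodes an oxysterol-binding protein. Its level was 4.72, 4.17, 3.52 and 3.31 RPM in control libraries and 43.4, 56.3, 49.8 and 58.7 RPM with both treatments. This was a 13.6-fold rise (log2 3.77 ± 0.12, adjusted p = 9.5e-15), with a wide gap between the groups. Edil3, which encodes a secreted integrin-binding protein, went from 3.52, 5.31, 5.16 and 4.15 RPM to 54.9, 51.4, 48.5 and 51.5 RPM (log2 3.56 ± 0.12). Every library with both treatments was high and every control low, and the 4 values within a group were close. Cytip (ENSMUSG00000026832.12, chromosome 2, 58129137 to 58195532, minus strand), a cytohesin-interacting scaffold of blood cells, went from 5.14, 4.61, 5.26 and 4.64 RPM to 41.1, 45.4, 49.2 and 47.3 RPM (log2 3.25 ± 0.09, adjusted p = 1.79e-15).

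Of the 12 largest increases, 4 encode immune receptors of the cell surface, grouped here after their values were seen. Trem1, which amplifies inflammatory signals, rose from 3.04, 3.16, 5.11 and 3.62 RPM to 29.4, 29.9, 38.0 and 33.4 RPM (log2 3.19 ± 0.12). Cd93, a lectin-like receptor, rose from 6.51, 6.98, 3.67 and 5.58 RPM to 53.6, 53.1, 35.8 and 39.6 RPM (log2 3.06 ± 0.11), with its 2 highest values in experiment 1. Tnfrsf9, the costimulatory receptor 4-1BB, rose from 9.66, 10.2, 5.61 and 3.84 RPM to 53.3, 73.5, 43.0 and 44.2 RPM (log2 2.98 ± 0.15). In each of the 3 receptors the lowest library with both treatments lay far above the highest control. Havcr2, the inhibitory receptor TIM-3, rose by log2 2.82 ± 0.13, from 5.35, 3.42, 3.87 and 4.47 RPM to 25.8, 29.9, 27.8 and 33.5 RPM.

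The remaining members of the 12 largest increases were of mixed function. Odc1, which opens polyamine synthesis and is a known cAMP target, rose from 25.8, 30.6, 34.4 and 31.5 RPM to 164, 184, 298 and 239 RPM (log2 2.86 ± 0.10). Car2, carbonic anhydrase 2, rose from 16.2, 17.0, 21.9 and 22.4 RPM to 103, 115, 148 and 208 RPM (log2 2.88 ± 0.10). For both genes experiment 2 gave the higher values with both treatments. Mxd4, a partner of MAX that opposes MYC, rose by log2 3.09 ± 0.14, from 7.45 ± 1.97 to 60.7 ± 7.24 RPM (SD, n = 4). Tm7sf3, a membrane protein gene, rose by 3.07 ± 0.18, and Oas2, an interferon-induced oligoadenylate synthetase, by 2.98 ± 0.18. Oas2 differed between the experiments: its control level was 2.99, 3.64, 9.28 and 11.4 RPM, and its log2 fold change was 3.48 in experiment 1 and 2.48 in experiment 2 (adjusted p of the difference = 0.0181).

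Of the 12 largest decreases, 6 stood in the lists for DNA replication (Mcm3 and Timeless), mitosis (Trip13 and Pbk) and G1 control (Mybl2 and Wee1). Mybl2 and Wee1 act later than G1, although they were placed in that list. Cdca7 (ENSMUSG00000055612.15, chromosome 2, 72476159 to 72486893, plus strand), a cell division cycle gene under E2F and MYC control, went from 35.2, 28.9, 27.3 and 31.7 RPM to 1.68, 2.54, 1.64 and 1.52 RPM. This is a 16.6-fold fall (log2 −4.05 ± 0.14, adjusted p = 9.5e-15), to levels just above the floor. Cse1l (ENSMUSG00000002718.14, chromosome 2, 166906040 to 166946389, plus strand), the exporter that returns importin α to the cytoplasm, fell 11.2-fold, from 239, 224, 235 and 255 RPM to 17.9, 20.9, 21.98 and 22.4 RPM (log2 −3.49 ± 0.07). Mcm3, a subunit of the replicative helicase, fell from 219, 219.6, 238 and 229 RPM to 19.99, 26.0, 26.4 and 30.5 RPM (log2 −3.12 ± 0.08). For Cse1l and Mcm3 the groups were far apart. Trip13, an ATPase of the spindle checkpoint (log2 −2.998 ± 0.10), Pbk, a mitotic kinase (−2.99 ± 0.12), and Wee1, the kinase that holds CDK1 inactive (−2.99 ± 0.18), fell as well. So did Mybl2, a transcription factor of the S and G2 phases (−2.92 ± 0.19), Timeless, of the replication fork (−2.75 ± 0.12), and the linker histone gene Hist1h1b (−2.62 ± 0.10).

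Of the other large decreases, one was a plasma membrane adaptor, one a chemokine and one a chemokine receptor. Efr3b, which anchors a phosphatidylinositol 4-kinase at the plasma membrane, fell from 26.4, 24.1, 25.0 and 23.7 RPM to 1.68, 1.59, 1.82 and 1.42 RPM (log2 −3.90 ± 0.13, adjusted p = 7.97e-15). Ccl3, the chemokine MIP-1α, fell from 190.0, 201, 189 and 219.6 RPM to 26.3, 30.7, 32.7 and 36.7 RPM (log2 −2.63 ± 0.08). Cx3cr1, the fractalkine receptor of resident macrophages, fell from 134, 133, 113 and 121 RPM to 17.4, 24.4, 16.8 and 22.4 RPM (log2 −2.61 ± 0.10). In all 3 the ranges of the groups lay well apart in both experiments.

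**Figure D2:**
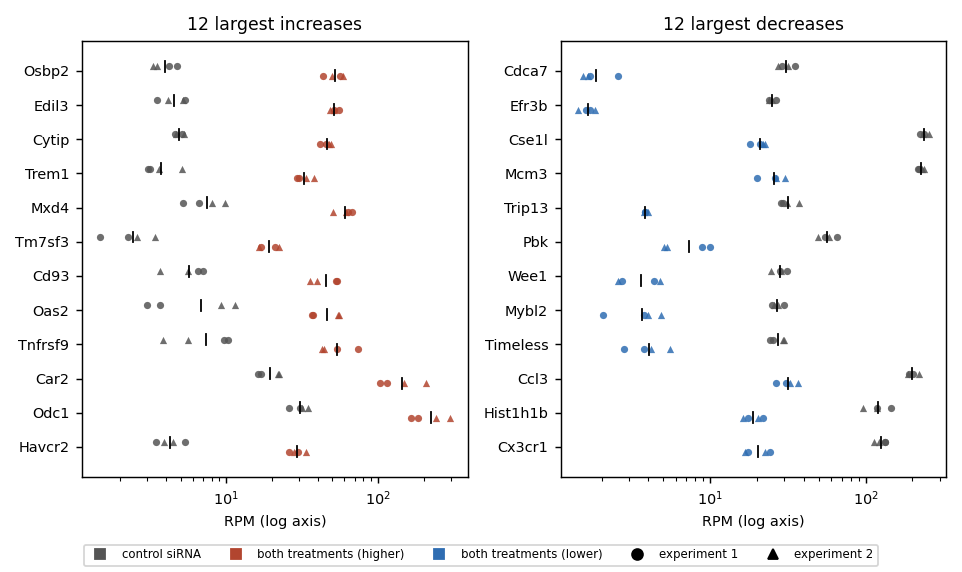
RPM of each of the 8 libraries (horizontal, log axis) for the 12 largest increases (left) and decreases (right), with circles for experiment 1, triangles for experiment 2 and a bar at the group mean. The groups do not overlap for any of the 24 genes, and the control values of Oas2 split by experiment.

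The libraries with a single treatment show which steps the net values contain. In one fit of all 16 libraries on the same 10825 genes, the Cebpb siRNA alone changed 62.3% of genes (3400 higher, 3348 lower) and isoproterenol alone 1.69% (134 higher, 49 lower). Isoproterenol given to Cebpb siRNA cells changed 5.63% (336 higher, 273 lower). These comparisons share the control libraries with the net one or, in the last case, share the libraries with both treatments, so their values are set side by side only. A departure from the sum of the single effects, taken on the log2 scale here and below, was called for 26 genes, 0.24% of those tested, 13 in each direction. The positive ones include Ctla2a, Ppbp and Gfod1, which were at 0 in all controls and entered the test only through the treated libraries. For such genes the floor hides the control level, so the departure cannot be estimated.

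Several of the largest increases had both steps in the same direction. Osbp2 rose by log2 2.56 with the siRNA alone and by 2.59 with isoproterenol alone. With both it rose by 3.77, less than the sum on the log2 scale (departure −1.38 ± 0.17, adjusted p = 7.43e-05). Its mean level was 3.93 ± 0.644 RPM in the control and 21.7 ± 1.53 RPM with the siRNA. It was 24.2 ± 4.05 RPM with isoproterenol and 52.1 ± 6.90 RPM with both (SD, n = 4 each). In RPM the rise with both was thus larger than the sum of the single rises. Edil3 rose by 2.45 and 1.69 in the single steps, Odc1 by 1.66 and 1.45, and Fos, an immediate early transcription factor, by 1.71 and 1.44. Mxd4, Tm7sf3, Oas2 and Car2 differed in this: their siRNA steps were 2.90, 3.53, 2.88 and 2.86, and their isoproterenol steps 0.52, −0.25, 0.02 and 0.09.

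Cytip, Havcr2 and Neurl3 exceeded the sum of the single effects. Cytip, at 4.91 ± 0.335 RPM in the control, reached 9.88 ± 1.60 RPM with the siRNA, 8.68 ± 1.11 RPM with isoproterenol and 45.8 ± 3.44 RPM with both (departure 1.39 ± 0.16, adjusted p = 5.48e-05). Havcr2 reached 13.2 ± 1.55, 4.68 ± 0.937 and 29.2 ± 3.26 RPM in the same order (departure 1.00 ± 0.21, adjusted p = 0.041). Neurl3, a ubiquitin ligase gene, reached 30.1 ± 1.71, 10.6 ± 0.361 and 52.1 ± 7.85 RPM from 10.1 ± 1.32 RPM (departure 0.70 ± 0.13, adjusted p = 0.00943). Havcr2 and Neurl3 thus stood near the control level with isoproterenol alone and above the siRNA level with both. These 3 were the genes with a positive departure at a mean of at least 10 RPM over the 16 libraries.

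Acod1, Pcdh7 and Slpi lay below the sum, as Osbp2 did. Pcdh7 rose by less than the sum, and Acod1 and Slpi fell by more. Slpi, a secreted protease inhibitor, went from 62.0 ± 2.95 RPM to 26.4 ± 6.03 RPM with the siRNA and 94.6 ± 7.95 RPM with isoproterenol, and to 22.1 ± 3.44 RPM with both (departure −0.87 ± 0.12, adjusted p = 0.00058). Acod1, which makes the macrophage metabolite itaconate, changed by log2 −0.97 with the siRNA, by 0.51 with isoproterenol and by −1.45 with both (departure −0.99 ± 0.18, adjusted p = 0.0115). For Slpi and Acod1 isoproterenol went with a higher level in control siRNA cells and not in Cebpb siRNA cells. Pcdh7, a protocadherin gene, rose by 1.46, 1.19 and 1.76 (departure −0.88 ± 0.12, adjusted p = 0.000504).

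Within Cebpb siRNA cells, among called genes at 10 RPM or more on average over the 16 libraries, the largest isoproterenol steps that ran with the net change were those of Cytip (2.17), Osbp2 (1.21), Odc1 (1.21) and Eno3 (1.19) upward. Downward they were those of Efr3b (−1.504), Lpl (−1.18), Ptchd1 (−0.97) and Wee1 (−0.80). Lpl, lipoprotein lipase, which releases fatty acids from triglyceride, was abundant in the control at 905, 864, 1226 and 1213 RPM and fell to 168, 174, 231 and 176 RPM with both treatments (log2 −2.45 ± 0.07). It fell with each treatment alone as well, by log2 1.27 with the siRNA and 0.76 with isoproterenol.

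For a few genes the steps opposed each other. Abca1, the cholesterol efflux pump, changed by log2 −0.33 with the siRNA alone and by 0.75 with isoproterenol alone and was 0.69 ± 0.10 with both (adjusted p = 4.77e-06). Hilpda, a lipid droplet protein, changed by −0.74 and 0.98 in the single steps, and the net value of 0.10 ± 0.14 did not pass the test (adjusted p = 0.54). Its levels overlapped, with 57.5, 56.4, 99.9 and 84.6 RPM in the control and 73.7, 68.5, 102 and 64.4 RPM with both. Mxi1, another MAX partner, was similar, with steps of −0.69 and 0.50 and a net value of 0.15 ± 0.11 (adjusted p = 0.255). Eno3, an enolase, changed by −0.57 with the siRNA and by 1.19 when isoproterenol followed it. Hilpda passed the test at 0.28 without replicate 2 of experiment 2 of the cells with both treatments, and Mxi1 at 0.28 without replicate 2 of experiment 1 of the controls. In all, 52 genes without a net call had a called siRNA step and a called isoproterenol step in Cebpb siRNA cells of opposite sign.

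**Figure D3:**
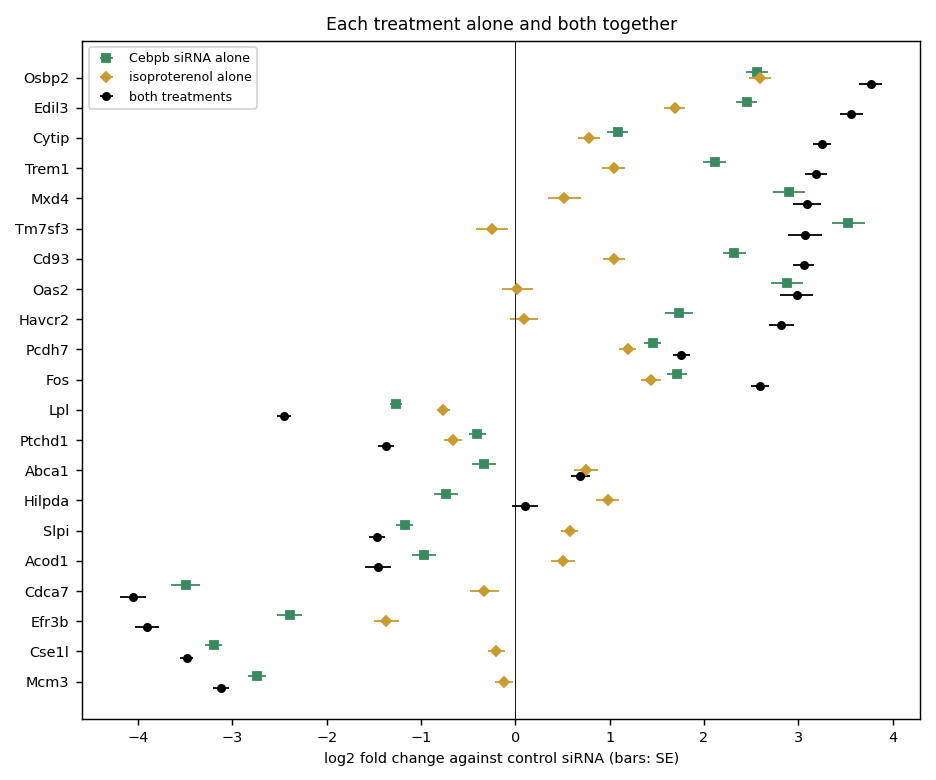
Log2 fold change against the control (horizontal axis, bars are SE) of 21 named genes for the Cebpb siRNA alone (green squares), isoproterenol alone (yellow diamonds) and both (black circles), 4 libraries per group. Cytip and Havcr2 lie far to the right with both treatments, and Hilpda lies near 0 with both while its single steps point in opposite directions.

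The net change also went with a short word in the 3′ UTR, the end of the transcript where small RNAs find their targets. The word AACTTGT was known from an earlier look at these fold changes, so the following is a description. In the longest 3′ UTR of 9977 genes, from GENCODE on GRCm38 (92.2% of those tested), 438 held the 8-base form AACTTGTA, 1048 held AACTTGT without it, 704 the shifted word ACTTGTA, 1619 the core ACTTGT alone and 6168 none of these. The median log2 fold change with both treatments was −0.34, −0.23, −0.16, 0.00 and 0.09 in that order. The share of genes called lower was 56.6%, 49.4%, 44.9%, 34.2% and 27.8%, beside 33.6% over all of them. Of the 11 genes among the 12 largest decreases that have an annotated 3′ UTR, 5 held AACTTGT and 9 the core, and of the 12 largest increases 0 and 2. Over all 9977 genes, 438 held AACTTGT in its 8-base form and 1048 without it, and 6168 lacked the core. The word and these named genes both come from the same fold changes, so their counts are no test of the word. The sites of those 5 genes are shown with 30 bases each, read 5′ to 3′ on the strand of the transcript with the word in capitals and GRCm38 positions.
Cdca7, chr2:72486113-72486142: aagagccccttAACTTGTttacacagaatc
Cse1l, chr2:166945885-166945914: ccaacctcttgAACTTGTcacaaactctta
Cse1l, chr2:166945969-166945998: atataactgatAACTTGTctactttgtcct
Efr3b, chr12:3966329-3966358: ggatggctaagAACTTGTcaccttggacag
Efr3b, chr12:3962652-3962681: tctatgttttaAACTTGTtgaatcaactta
Mybl2, chr2:163083812-163083841: tgggttctgagAACTTGTtggagcgctgca
Trip13, chr13:73912454-73912483: ttgtaatattaAACTTGTtttcagaattct
The first site of Cse1l starts 104 bases into a 3′ UTR of 596 bases, and the second 188 bases into it. Longer UTRs hold more words of any kind: the median length was 2734 bases for the 8-base form and 772 bases where the core was missing. Among 3′ UTRs of 1000 to 3000 bases the medians were −0.37 for 183 genes of the 8-base form and 0.13 for 2103 lacking the core. With the siRNA alone the class medians were −0.39 for the 8-base form, −0.19 and −0.16 for the 7-base forms, 0.00 for the core alone and 0.07 without it. With isoproterenol alone they lay between −0.01 and 0.01. No sequence of the siRNA is stated in the sources used here, and whether the word matches it was not tested.

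**Figure D4:**
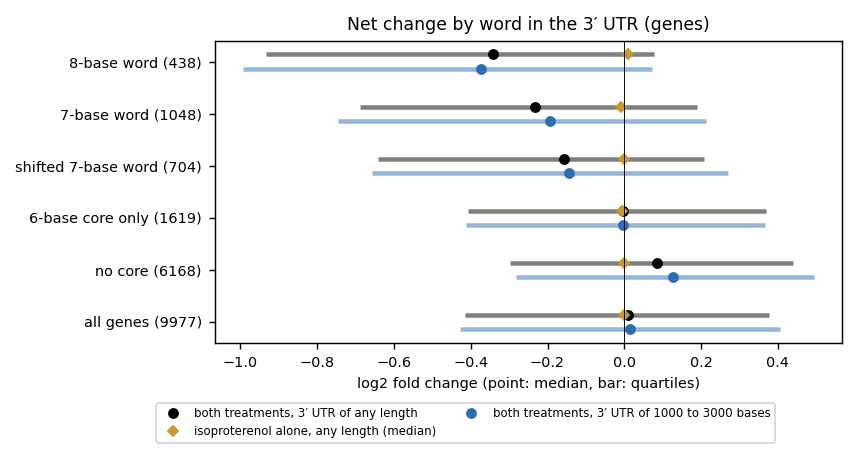
Log2 fold change (horizontal axis) by class of word in the 3′ UTR, with points at the median and bars over the quartiles, for both treatments at any UTR length (black) and at 1000 to 3000 bases (blue), and the median with isoproterenol alone (yellow diamonds). The medians run from −0.34 with the 8-base word to 0.09 without the core at any length, and the isoproterenol medians stay near 0.

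Every tested gene of the DNA replication list was lower. This list holds the licensing factors, the helicase, the polymerases and the enzymes of nucleotide supply. Of its 49 tested members 49 fell, 41 of them by at least 2-fold, with a median log2 of −1.51 beside 0.02 over all genes. Their summed level was 3146 to 3492 RPM in the control libraries and 952 to 1162 RPM in those with both treatments. Mcm6 fell from 266, 252, 287 and 295 RPM to 46.3, 50.1, 56.0 and 48.4 RPM (log2 −2.42 ± 0.06). Mcm10, which helps to load the polymerase, and Mcm2 fell too (−2.61 ± 0.08 and −1.92 ± 0.07). All 6 subunits of the MCM helicase moved together, between −3.12 for Mcm3 and −1.51 for Mcm5. The smallest fall was that of Rfc1, at −0.24. The origin licensing factor Cdc6 fell by log2 2.35 and Rrm2, the regulated subunit of ribonucleotide reductase, by 2.56.

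Mitotic genes were lower as well, with 44 of 44 tested members lower, 33 by at least 2-fold, and a median of −1.31. Their summed level was 4971 to 5285 RPM in the control libraries and 2041 to 2240.0 RPM in those with both treatments. Cdk1, the mitotic kinase, fell from 304, 252, 229.7 and 262 RPM to 71.4, 78.0, 60.3 and 62.3 RPM (log2 −1.91 ± 0.07). Nusap1, a spindle protein (−1.69 ± 0.07), and Incenp, of the chromosomal passenger complex (−1.504 ± 0.07), also fell. Top2a and Mki67, the usual proliferation markers, fell by 1.71 and 1.32. With the siRNA alone the medians of the replication and mitosis lists were −1.28 and −1.17, and with isoproterenol alone −0.13 and −0.18. In RNA from a whole culture, fewer cells in a phase and less RNA per cell cannot be told apart.

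The list of G1 regulators, which also holds Mybl2 and Wee1 of later phases, moved in both directions. Of its 34 tested members 12 rose (35.3%, beside 33.7% of all tested genes) and 17 fell (50%, beside 32.4%). The activating E2F genes E2f1 (−1.59) and E2f2 (−2.54), the repressors E2f7 (−2.40) and E2f8 (−1.89), the cyclin E genes Ccne1 (−1.69) and Ccne2 (−2.88) and the kinase Cdk6 (−2.001) fell. So did Wee1, the kinase that holds CDK1 inactive (−2.99). Cdk6 went from 293, 304, 302 and 325 RPM to 64.1, 76.3, 87.7 and 72.2 RPM, without overlap. Brakes on the cycle were among the members that rose: the CDK inhibitor Cdkn1a (1.07), the antiproliferative genes Btg1 (1.78) and Btg2 (2.29) and the pocket protein Rbl2 (0.61). Cyclin D2, Ccnd2, which promotes G1 progression, also rose, from 60.7 ± 7.42 to 292 ± 37.0 RPM (log2 2.30 ± 0.10), while Ccnd1 fell by 0.34. Myc was listed at 0 in all 8 libraries.

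The promoters of these genes were searched for the elements known for their phase. Promoter sequence was taken from RefSeq on GRCm38.p6, from 250 bases before to 50 after each start, for 8254 of the 10825 genes and for 27025 genes in all, and was searched on both strands. Mitotic genes are known for the CHR element, searched as TTTGAA, and replication genes for the E2F site, searched as TTTCCCGC. A CHR match lay in 25 of 36 promoters of the mitosis list (69.4%), in 20.2% of all promoters, in 14.2% of those of the tested genes and in 22.9% of those of genes lower by at least 2-fold. An E2F match lay in 7 of 40 replication promoters (17.5%), in 1.24% of all, in 2.67% of those of the tested genes and in 6.33% of those of the genes lower by at least 2-fold. Cdk1 and Cdc6 are shown as members of the 2 lists that fell throughout, as stretches of 130 bases upstream of the start, read on the strand of the gene with matches in capitals. The Cdk1 stretch is chr10:69352913-69353042 on the minus strand, and that of Cdc6 is chr11:98907953-98908082 on the plus strand.
Cdk1: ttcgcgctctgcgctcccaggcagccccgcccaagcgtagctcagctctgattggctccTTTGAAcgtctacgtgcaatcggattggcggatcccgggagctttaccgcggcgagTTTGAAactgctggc
Cdc6: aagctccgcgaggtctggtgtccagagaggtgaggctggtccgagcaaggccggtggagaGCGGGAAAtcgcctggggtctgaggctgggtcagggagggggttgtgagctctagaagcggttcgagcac
The Cdk1 stretch holds 2 CHR matches and the Cdc6 stretch 1 E2F match on the opposite strand. A match describes the letters only, and binding was not measured.

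Genes of the ATF4 response and of amino acid supply were mostly lower. ATF4 is the transcription factor through which cells answer amino acid shortage and endoplasmic reticulum stress. Of 36 tested members 31 fell and 3 rose, with a median of −0.76. Atf4 itself fell from 424, 424, 456 and 466 RPM to 172, 194, 229.7 and 235 RPM (log2 −1.07 ± 0.06). Among the serine and one-carbon enzymes Shmt2 (−2.48 ± 0.09), Mthfd1l (−1.73), Psat1 (−1.46 ± 0.06) and Mthfd2 (−1.24) fell, as did Cth (−2.42 ± 0.09), which makes cysteine. Transporters fell too, with the arginine carrier Slc7a1 at −1.63 ± 0.07 and the glutamine carrier Slc1a5 at −1.49, and so did the feedback regulators Trib3 (−1.83) and Chac1 (−1.32). The 3 members that rose were Ddit4, an mTORC1 inhibitor, at 1.51 ± 0.08, Nupr1 at 0.43 and Sesn2 at 0.25, and 1 rose in experiment 1 alone or without replicate 2 of experiment 2 of the controls. Cebpb, Cebpg and Ddit3, which are themselves C/EBP family members, are counted in this list.

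ATF4 and C/EBP proteins bind together at a composite element, searched as TGATGCAA. It was found in 8 of 29 promoters of the list (27.6%), in 1.03% of all promoters, in 0.727% of those of the tested genes and in 0.603% of those of genes lower by at least 2-fold. Slc7a11, the cystine importer, is shown because its stretch (chr3:50443614-50443743 on the minus strand) holds 2 matches in opposite orientations, in capitals.
Slc7a11: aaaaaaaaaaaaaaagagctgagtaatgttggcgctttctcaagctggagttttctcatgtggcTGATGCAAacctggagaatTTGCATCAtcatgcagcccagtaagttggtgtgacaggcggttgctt
Slc7a11 fell from 33.0, 32.8, 34.6 and 41.1 RPM to 19.2, 20.2, 27.6 and 17.1 RPM (log2 −0.73 ± 0.11, adjusted p = 2.24e-05).

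The C/EBP family held 7 tested genes, of which 2 rose and 4 fell. Beside Cebpb, Ddit3 (CHOP, a stress-induced dimer partner) fell from 45.5, 43.8, 53.3 and 54.2 RPM to 15.7, 16.2, 29.4 and 22.9 RPM (log2 −1.23 ± 0.10). Cebpg fell by 0.56 ± 0.07, and Cebpa by 0.60 ± 0.23 at levels near the floor. Cebpd rose from 12.8, 11.6, 10.4 and 11.3 RPM to 19.3, 21.2, 15.6 and 15.6 RPM (log2 0.66 ± 0.09), and Cebpe by 0.55 ± 0.11. Cebpd also rose with either treatment alone, by log2 0.85 and 0.43, and with both fell short of the sum (departure −0.62 ± 0.13, adjusted p = 0.0411). The C/EBP palindrome, searched in promoters as TTGCGCAA, lay in 32 of those of the tested genes (0.388%). It lay in 4 of 469 promoters of genes higher by at least 2-fold (0.853%) and in 1 of 663 of those lower (0.151%).

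Of 20 tested myeloid genes linked to C/EBPβ in textbooks, 12 rose and 7 fell, so the list moved in both directions while Cebpb itself was lower. Trem1 was the member with the largest rise. Clec5a and Clec4n, which are activating C-type lectins, rose by log2 1.502 ± 0.08 and 1.67 ± 0.15, and Ptgs2, the inducible cyclooxygenase, by 1.41 ± 0.10. The protease inhibitor Slpi, the high-affinity Fc receptor Fcgr1 (−1.22 ± 0.10) fell. S100a8, a calprotectin subunit, was listed at 0 in the 4 libraries with both treatments and at 2.73, 2.90, 2.28 and 3.48 RPM in the controls. Lyz2, lysozyme, did not pass the test (log2 0.07 ± 0.06, adjusted p = 0.291). Its isoproterenol step was 0.75 in control siRNA cells and 0.02 in Cebpb siRNA cells (departure −0.74 ± 0.09, adjusted p = 0.000112). In this and the later lists, Il1b, Cd80, Gpr18, Ccl22, Egr2, Cd83, H2-DMb1 and Nr4a1, counted as higher, and S100a8, counted as lower, were at 0 in every library of 1 group and entered the test only through the other.

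Targets of cAMP and CREB were the list with the highest median, log2 1.10: 18 of 26 tested members rose, 14 of them by at least 2-fold, and 4 fell. Fos went from 8.40, 6.59, 11.7 and 9.47 RPM to 48.5, 47.6, 56.8 and 56.0 RPM (log2 2.59 ± 0.10). Btg2 went from 15.7, 15.0, 13.5 and 14.3 RPM to 74.1, 68.8, 67.0 and 70.0 RPM (log2 2.29 ± 0.07), and Junb, a partner of FOS in AP-1, from 42.4, 37.7, 39.5 and 43.1 RPM to 99.1, 93.8, 96.4 and 102 RPM (log2 1.30 ± 0.07). The groups did not overlap for any of these 3 genes. The orphan nuclear receptor Nr4a2 rose by 2.42 ± 0.13 and Crem, a cAMP-responsive factor with repressor isoforms, by 1.88 ± 0.10. The 4 that fell were Cebpb itself, the stress factor Atf3 (−0.97), Rgs1 (−0.57) and Egr1 (−0.47). The list's median was 0.39 with the siRNA alone and 0.24 with isoproterenol alone.

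The cAMP response element (CRE) was searched as TGACGTCA. It lay in 3 of 20 promoters of this list in 2.03% of all promoters and in 3.97% of those of the tested genes. Its shorter core, searched as TGACG and contained in the full element, lay in 16 of the 20 in 23% of all and in 37.6% of those of the tested genes. Among the promoters of genes higher by at least 2-fold, 2.99% held the full element and 31.3% the core, each below the share among tested genes. Btg2 is shown as the list member with the smallest adjusted p, with its element in capitals (chr1:134079252-134079381 on the minus strand).
Btg2: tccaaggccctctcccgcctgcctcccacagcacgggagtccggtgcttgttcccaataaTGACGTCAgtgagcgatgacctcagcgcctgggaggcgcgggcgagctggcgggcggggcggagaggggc
Btg2 stood at log2 2.03 with the siRNA alone and at 0.15, without passing the test, with isoproterenol alone.

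In the β-adrenergic pathway itself 11 of 24 tested genes rose and 5 fell, with a median of 0.09. The adenylyl cyclase Adcy7, which makes cAMP, rose from 49.8, 46.1, 38.9 and 42.1 RPM to 92.1, 94.2, 89.6 and 92.5 RPM (log2 1.10 ± 0.07), without overlap. Of the protein kinase A subunits, the catalytic Prkacb rose from 46.2, 46.4, 50.9 and 45.6 RPM to 108, 107, 104 and 105 RPM (log2 1.20 ± 0.06). The regulatory Prkar2a fell from 157, 145, 144 and 146 RPM to 21.4, 31.9, 27.0 and 27.5 RPM (log2 −2.43 ± 0.09), and Prkar1a rose by 0.48. The phosphodiesterases, which degrade cAMP, split as well: Pde3b (1.59 ± 0.12) and Pde4b (1.03) rose, and Pde4a (−1.25) and Pde7a (−0.93) fell. Prkar2a and Prkacb stood at −2.44 and 1.15 with the siRNA alone, and at −0.12 and 0.15, without passing the test, with isoproterenol alone.

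Immediate early genes and the phosphatases that restrain MAP kinases rose in 16 of 29 cases and fell in 3. Dusp2 rose by log2 1.56 ± 0.09, Dusp5 by 1.22 ± 0.09, Dusp1 by 0.91 ± 0.07 and Ier3, an early survival gene, by 1.09 ± 0.08. The early genes Egr1 (−0.47) and Klf6 (−0.41) and the phosphatase Dusp7 (−0.75) were the 3 that fell. Jun and Jund did not pass the test, at 0.10 ± 0.06 and 0.05 ± 0.06.

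Interferon-stimulated genes, which cells switch on as a defence against viruses, were higher in 46 of 51 tested cases and lower in 1, with a median of 1.08, and 30 rose by at least 2-fold. Their level differed between the experiments in both groups. The summed level of the 52 listed genes was 645 and 701 RPM in the control libraries of experiment 1 and 1777 and 1903 RPM in those of experiment 2. With both treatments it was 1806 and 1695 RPM in experiment 1 and 3333 and 2813 RPM in experiment 2. So the summed levels of the groups were apart within each experiment and overlapped across them, since the treated libraries of experiment 1 lay near the controls of experiment 2. In 23 of the 51 genes the groups were separate over all 8 libraries, a share below the 51.5% of all tested genes. In 39 they were separate within each experiment, a count with no share over all genes to set beside it. The median was 1.41 in experiment 1 and 0.84 in experiment 2, and without a term for the experiment 27 members were called higher.

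Parp9, an interferon-induced PARP family gene, stood at 11.2, 11.4, 21.4 and 19.7 RPM in the controls and 30.5, 29.4, 51.1 and 48.7 RPM with both treatments (log2 1.38 ± 0.08). The growth regulator Slfn2 rose by 1.14 ± 0.07 and the guanylate-binding GTPase Gbp7 by 2.03 ± 0.14. The RNA sensors Ddx58 (RIG-I) and Ifih1 (MDA5) rose by 1.505 ± 0.12 and 1.39 ± 0.10. Irf9 was the member that fell (−0.41 ± 0.09), and Ifit2, Rsad2, Gbp3 and Ifit3b did not pass the test. With the siRNA alone the median was 1.05 and with isoproterenol alone 0.08. Reads of near-identical family members (the Oas1, Ifit3 and Gbp genes) could be split between copies.

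The core of the interferon-stimulated response element, searched as GAAANNGAA, lay in 27 of 39 promoters of the list (69.2%), in 9.76% of all promoters, in 8.86% of those of the tested genes and in 15.4% of those of genes higher by at least 2-fold. Isg15, a ubiquitin-like protein, is shown for its 3 overlapping matches, in capitals (chr4:156200819-156200948 on the minus strand).
Isg15: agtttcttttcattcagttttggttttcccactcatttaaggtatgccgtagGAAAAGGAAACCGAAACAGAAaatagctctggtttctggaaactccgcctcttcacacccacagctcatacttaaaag
Isg15 went from 5.93, 4.96, 23.8 and 25.9 RPM to 30.1, 29.0, 77.1 and 60.2 RPM (log2 1.98 ± 0.17), so that the lowest treated library lay just above the highest control.

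Antigen presentation genes, several of which respond to interferon, rose in 19 of 26 cases and fell in 2, with a median of 0.51. Cd74, the invariant chain that guides class II molecules, rose from 19.1, 20.6, 18.9 and 16.3 RPM to 65.7, 70.0, 68.9 and 89.5 RPM (log2 2.004 ± 0.10). Tapbp (tapasin), which loads class I molecules, rose by 1.05 ± 0.06, the class I light chain B2m by 0.73 ± 0.06 and the protease cathepsin S, Ctss, by 0.62 ± 0.06. Of the class II chains, H2-Aa and H2-Eb1 were listed at 0 in all 8 libraries, as was Ciita, the class II master regulator. H2-DMa rose by 1.25 ± 0.15 at a mean of 5.80 ± 1.15 RPM. Near-identical class I genes can share reads.

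Targets of NF-κB rose in 16 of 29 cases and fell in 7. The adaptor Traf1 went from 20.4, 20.1, 20.4 and 21.9 RPM to 63.99, 70.7, 96.7 and 91.3 RPM (log2 1.98 ± 0.09), and the inhibitor Nfkbie rose by 1.55 ± 0.15. The NF-κB subunits Rel (1.18), Relb (1.10), Nfkb2 (0.67) and Nfkb1 (0.42) rose. Cd83, a maturation marker, was listed at 0 in every control library and stood at 5.98, 4.63, 7.15 and 6.36 RPM with both treatments. Against this, the chemokines Ccl3 and Ccl4, the growth factor Csf1 (−2.12 ± 0.14) and Gadd45b (−1.21) fell.

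Markers of classical (M1) activation rose in 12 of 19 cases and fell in 6, while their summed level was lower, with 1452 to 1618 RPM in the control libraries and 1168 to 1327 RPM in those with both treatments. The abundant Ccl4, the chemokine MIP-1β, went from 685, 642, 533 and 609.8 RPM to 223, 232, 215 and 189 RPM (log2 −1.49 ± 0.06). The costimulatory molecules Cd86 and Cd40 rose by 1.61 ± 0.09 and 1.23 ± 0.12. Cytokines were mixed: Tnf fell slightly, from 47.1, 53.9, 46.6 and 49.7 RPM to 37.1, 43.8, 36.7 and 42.5 RPM (log2 −0.27 ± 0.08, adjusted p = 0.0052), and Il18 rose by 1.36 ± 0.11. Il1b was listed at 0 in the 4 controls and stood at 3.58, 5.01, 6.27 and 3.86 RPM with both treatments. Cd80, Gpr18 and Il1b, counted as higher, were at 0 in all controls and entered the test only through the treated libraries. Nos2 and Il6 were listed at 0 in all 8 libraries.

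Genes of M2 activation, the programme named in the title of the series, rose in 8 of 13 tested cases and fell in 3. Of the 8, Ccl22 and Egr2 were at 0 in all controls and entered the test only through the treated libraries. Il1rn, which blocks the interleukin-1 receptor, rose from 81.0, 76.7, 146 and 139 RPM to 334, 364, 781 and 586 RPM (log2 2.23 ± 0.08). The galactose-type lectins Clec10a and Mgl2 rose from 110.4, 106, 85.6 and 83.3 RPM to 300.0, 317, 223 and 196 RPM (log2 1.44 ± 0.06) and from 46.5, 52.4, 29.7 and 29.0 RPM to 116, 118, 77.5 and 74.4 RPM (log2 1.34 ± 0.07). In these 3 genes the experiments differed in level, and the groups did not overlap. Klf4, a transcription factor of M2 cells, rose by 1.38 ± 0.12, and Ccl22 went from 0 in all controls to 2.70, 3.997, 4.21 and 3.62 RPM. The β-glucan receptor Clec7a (−1.54 ± 0.12), the coactivator Ppargc1b (−1.04 ± 0.10) and the scavenger receptor Msr1 (−0.19 ± 0.05) fell. Arg1, Il10, Vegfa, Chil3 and Mrc1 were listed at 0 in all 8 libraries, so no change of these M2 genes could be seen. The count of members higher was 5 without replicate 2 of experiment 1, or replicate 2 of experiment 2, of the cells with both treatments, since fewer members then reached the floor in 4 libraries.

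Chemokine and cytokine ligands moved in both directions: 13 of 27 rose and 8 fell. Ccl9 rose from 205, 219, 316 and 343 RPM to 513, 566, 813 and 813 RPM (log2 1.36 ± 0.06), and Cxcl16 (1.21 ± 0.06), Ccl7 (1.33), Ccl12 (1.21), Cxcl2 (0.71) and Ccl2 (0.62) also rose. The growth factors Bmp2 (2.21 ± 0.15) and Pdgfa (1.82 ± 0.08) rose, and Igf1 (−1.49 ± 0.08) and Csf1 fell. Cxcl10, an interferon-induced chemokine, fell by 0.61 ± 0.18 although most of the interferon list was higher.

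Of 27 genes that define macrophages 25 were tested and shifted individually, with 12 higher and 7 lower. Of the 2 not tested, 1 was listed at 0 in all 8 libraries. Cd14, the lipopolysaccharide co-receptor, rose from 87.4, 82.1, 108 and 114 RPM to 198, 193, 193 and 188 RPM (log2 1.03 ± 0.07), in every library above every control. The integrin Itgam (0.80 ± 0.07), the receptor Csf1r (0.58 ± 0.07) and the lineage factor Spi1 (0.50 ± 0.08) rose. Cx3cr1, Fcgr1, Irf8 (−0.69 ± 0.06) and Trem2 (−0.49 ± 0.06) fell. Osteoclast genes, which this line expresses on further differentiation, rose in 8 of 10 tested cases and fell in 1. Car2, Fos and the fusion receptor Dcstamp (1.40 ± 0.09) had the largest rises, and Mitf fell (−0.79 ± 0.10), while Ctsk and Acp5, which encode cathepsin K and an acid phosphatase, were listed at 0 in all 8 libraries.

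Lipid genes moved in both directions. Of 20 tested genes of lipid uptake, storage and efflux 8 rose and 9 fell. The fatty acid carriers Fabp5 and Fabp4 fell by log2 1.46 ± 0.09 and 1.78 ± 0.16, and the cholesterol exporter of lysosomes Npc1 by 1.03 ± 0.09. Lpl fell as described, while Abca1 and Abcg1 (0.45 ± 0.08), the efflux pumps, rose. In cholesterol synthesis 5 of 23 rose and 11 fell. Hsd17b7 went from 87.0, 94.4, 99.1 and 109 RPM to 18.4, 19.7, 23.1 and 24.7 RPM (log2 −2.15 ± 0.07), whereas Hmgcs1 (0.90 ± 0.08) and Msmo1 (0.69 ± 0.06) rose.

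Genes of energy metabolism were called in both directions at similar shares. Glycolysis and hypoxia genes were higher in 11 of 29 and lower in 10 of 29 cases, and oxidative phosphorylation genes in 13 and 8 of 35, shares near the background. Aldoc (1.07 ± 0.06), P4ha1 (0.83 ± 0.07) and the glucose transporter Slc2a1 (0.74 ± 0.09) rose, and Hk2 (−0.88 ± 0.12), Pdk1 (−0.94 ± 0.11) and Ndrg1 (−0.90 ± 0.09) fell. Of the respiratory chain, Ndufs1 rose by 0.80 ± 0.07 and Ndufv2, of the same complex, fell from 79.9, 83.2, 79.5 and 81.6 RPM to 39.5, 44.4, 37.7 and 34.4 RPM (log2 −1.03 ± 0.07). Lysosomal and phagocytic genes were also mixed, with 14 of 35 higher and 9 lower. Laptm5 rose by 0.90 ± 0.05, and Cybb, the NADPH oxidase subunit, and Atp6v1a, of the proton pump, fell by 1.18 ± 0.06 and 1.15 ± 0.07.

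Targets of p53 and genes of apoptosis rose in 14 of 24 tested cases and fell in 6. Ccng1, cyclin G1, went from 45.8, 42.9, 41.6 and 46.3 RPM to 171, 173, 135 and 146 RPM (log2 1.85 ± 0.07). Zmat3 rose by 1.66 ± 0.07, Cdkn1a by 1.07 ± 0.06, Phlda3 by 1.09 ± 0.09 and Mdm2, the ubiquitin ligase of p53, by 0.52 ± 0.06. Trp53 itself did not pass the test (0.08 ± 0.07). The kinase gene Plk2 (−1.40 ± 0.07) and Gadd45a (−0.96 ± 0.11), also known as p53 targets, fell. Ccng1 and Zmat3 stood at −0.08 and −0.03 with isoproterenol alone.

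**Figure D5:**
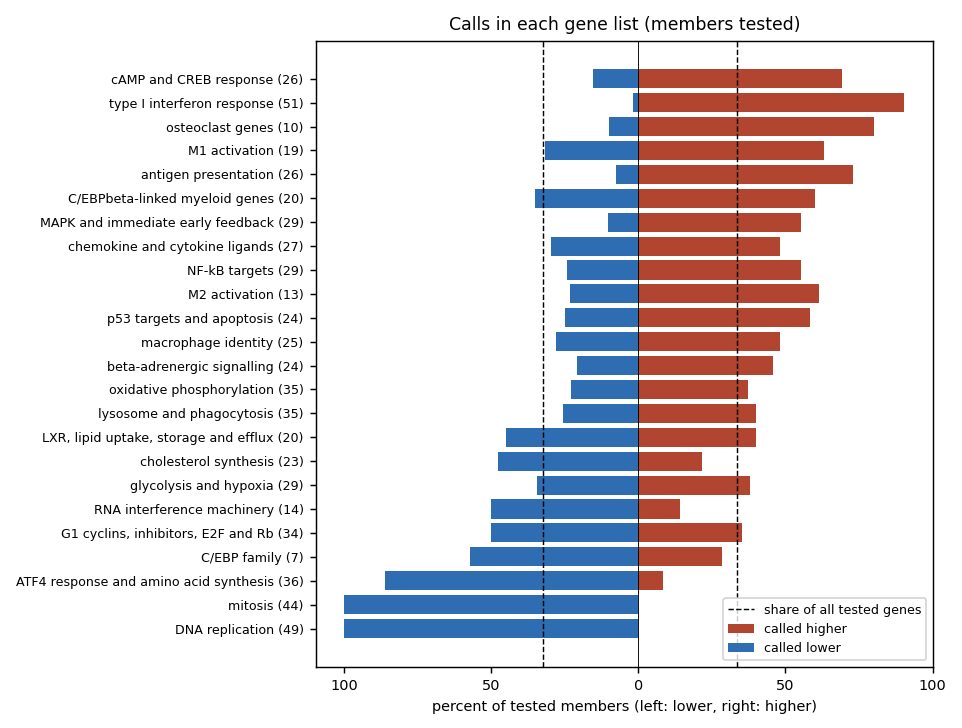
Share of tested members called higher (red, to the right) and lower (blue, to the left) in percent for 24 gene lists, ordered by median change, with the number tested in brackets and dashed lines at the shares of all genes, 33.7% and 32.4%. The replication and mitosis lists reach 100% lower, and the interferon list 90.2% higher.

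In absolute terms the largest shifts of reads lay in a few abundant transcripts. Besides the mitochondrial rRNAs mt-Rnr2 (log2 0.80 ± 0.09) and mt-Rnr1 (0.79 ± 0.08), the gains were largest for Fth1, the ferritin heavy chain, with 2110.0, 2029, 2131 and 2166 RPM in the control and 4593, 4341, 4844 and 3661 RPM with both treatments. S100a4, a calcium-binding protein of motile cells, went from 992, 936, 958 and 1083 RPM to 2193, 2607, 2618 and 3463 RPM (log2 1.47 ± 0.09), and Tmsb4x, an actin-binding peptide gene, rose by 0.59 ± 0.07. The largest losses beside Lpl were in Hspa5, the main chaperone of the endoplasmic reticulum (2486, 2555, 3282 and 3301 RPM to 1447, 1558, 1853 and 1702 RPM), Serbp1 (−0.71 ± 0.06) and the tubulins Tuba1b (−1.46 ± 0.07) and Tubb5 (−1.67 ± 0.06). Each of these genes had the same sign in both experiments, and the groups overlapped for Tmsb4x alone.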

How the data were processed

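RAW264.7 libraries were made with a 3′ end kit, QuantSeq 3′ FWD, per the labels' protocols. Alignment was to GRCm38 by STAR 2.5.3a, per the submitters' processing notes. The counter, its annotation and its use of strand are not stated there, so near-identical, overlapping and antisense genes have uncertain values. The deposited values are log2 RPM by the authors, with 1 RPM or less listed as 0. This was read from the values, since multiplying back gave whole reads within 0.1 read for 100% of them. The 4 summary rows of reads on no gene were not tested.

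Libraries were grouped by their titles, and the design text calls them biological replicates. Between replicates of an experiment the chi-square per degree of freedom was 4.92 to 12.2 in the 2 groups, above counting noise. Values were rescaled by a trimmed mean of log ratios (30% by ratio, 5% by level), set to a common floor of 1.02 RPM and tested with limma 3.58.1 in R 4.3.3, with trend and robust estimation and the experiment as a term. A Benjamini-Hochberg adjusted p under 0.05 made a call, with each gene's adjusted p from limma. Log2 fold changes carry SE. RPM levels are unscaled and carry SD, and a level at the floor makes a difference too small. Counting error at the floor rests on 13 to 22 reads. Steps came from a fit of all 16 libraries on the same genes. The fit was also run on simulated data with known changes in a small share of genes, as many up as down. That run does not show how the scaling behaves where most genes change, as here.

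The members and the 24 pathway and 6 marker lists, of which 63 genes stand in more than 1, were chosen with earlier results of these data known. Named genes are the 12 largest changes each way (same sign in both experiments, 10 RPM or more, no provisional symbol), up to 4 members of each list by adjusted p, 10 genes listed by name, the largest steps and departures (up to 4 each way) and the 5 largest gains and losses of RPM. Some genes are not reported here. Other list members were chosen after their values were seen. Replicate numbers recur across groups: deviations from the group mean correlated at 0.235 to 0.470, and within experiments at −0.06 and 0.10, so that the experiment, already a term, holds most of it. The 3′ UTRs came from GENCODE, and 21 alternative settings were run, 1 of them (recovered reads with voom weights) added after the data were seen.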

Additional observations from a re-analysis of the deposited data

Results flagged for a closer look

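In groups of 4 libraries, a library was taken as standing apart where its gap to the nearest other, as a share of the group's range, exceeded Dixon's critical value. This held for 14 of 441 groups tested over 230 genes and 5 library measures, and chance gives about 1 in 20. With both treatments these were Cdca7 at 2.54 RPM and Tubb5 at 346 RPM in replicate 2 of experiment 1, Dusp7 at 5.52 RPM in the same library, Incenp at 66.7 RPM and Xpo5, which exports precursor miRNAs, at 6.86 RPM in replicate 1 of experiment 1. Lpl at 231 RPM and Fabp5 at 87.6 RPM stood apart in replicate 1 of experiment 2, and Cd86 at 40.8 RPM and Btg1 at 46.2 RPM in replicate 2 of experiment 2. Among the controls they were Prkar2a at 157 RPM and Shmt2 at 107 RPM in replicate 1 of experiment 1, Sesn2 at 23.3 RPM in replicate 2 of experiment 1, and Prkacb at 50.9 RPM and Nr4a2 at 4.27 RPM in replicate 1 of experiment 2. For each of these genes the 2 groups of the comparison did not overlap.

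Among the same genes, the isoproterenol step in Cebpb siRNA cells differed from that in control siRNA cells for 16, by the interaction term of the fit of 16 libraries in limma. The difference was positive for Cytip (1.39, adjusted p = 5.48e-05), Havcr2 (1.00, adjusted p = 0.041) and Neurl3 (0.70, adjusted p = 0.00943). It was also positive for Ctla2a (2.08, adjusted p = 4.12e-05), Nr4a2 (1.76, adjusted p = 4.12e-05), Ppbp (1.76, adjusted p = 0.000207) and Ccl22 (1.23, adjusted p = 0.031), of which Ctla2a, Ppbp and Ccl22 were at 0 in all controls. For these 3 the floor hides the control level, so the difference cannot be estimated and its adjusted p carries no weight. The difference was negative for Osbp2 (−1.38, adjusted p = 7.43e-05), Acod1 (−0.99, adjusted p = 0.0115), Pcdh7 (−0.88, adjusted p = 0.000504), Slpi (−0.87, adjusted p = 0.000581) and Lyz2 (−0.74, adjusted p = 0.000112). The same held for Il1rn (−0.65, adjusted p = 0.00297), Cebpd (−0.62, adjusted p = 0.0411), and the chemokines Ccl4 (−0.57, adjusted p = 0.00216) and Ccl9 (−0.46, adjusted p = 0.00243). The net change differed between the experiments for 7 of the genes. Relative to experiment 1 it was lower in experiment 2 for Oas2 (−1.01, adjusted p = 0.0181), Isg15 (−0.93, adjusted p = 0.0181), Clec4n (−0.88, adjusted p = 0.0115), Ccl2 (−0.76, adjusted p = 0.0181) and Hk2 (−0.67, adjusted p = 0.0274). It was higher for Nupr1 (1.012, adjusted p = 0.0148) and Nfkbie (0.93, adjusted p = 0.0115).

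Outside the gene values, unmapped reads made up 6.63% of reads with both treatments and 5.45% in the controls (exact two-sided permutation p = 0.0571, 0.114 after adjustment over 10 measures). Reads mapped to several places made up 20.4% and 21.9%, and 10760 and 10653 genes lay above the floor (each exact two-sided permutation p = 0.0286, 0.0714 after adjustment).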

How the results depend on the processing

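Under all 21 alternatives 0 genes were called in the opposite direction. The numbers called lay between 2557 and 3659 higher and 2428 and 3703 lower. With a mean of at least 10 RPM required, fewer genes were tested, and 323 were higher and 542 lower by at least 2-fold. Leaving out 1 library in turn gave 3324 to 3487 higher and 3236 to 3469 lower genes, and 584 to 649 and 857 to 894 by at least 2-fold. With a replicate block, which adds the pairing of same-numbered libraries, 3577 were higher and 3449 lower, 640 and 879 by at least 2-fold, and no call of a named gene was lost. Recovered reads with voom weights gave 3377 and 3306 over 9919 genes, of which 3340 and 3277 were also called in the reported fit.

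Of 121 named genes tested 117 kept their call under every one of the 21 that tested them. Genes left out by the filter of an alternative, such as Cd83 and Il1b at 0 in all controls, were not tested in it. In experiment 2 alone Eno3 (0.33) and Tnf (−0.23) missed the threshold, and in experiment 1 alone Hilpda passed it (0.32). The cause was not tested. Without the experiment term the lists of lipid and of cholesterol genes had 4 and 3 members higher. Genes near the floor limit what depth can show: 906 of those tested were at it in at least 1 library.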

Other observations

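For genes listed at 0 in every library of a group the fold change is limited by the floor. Of the tested genes, 97 were so in the controls, 89 of them called higher. With both treatments 60 were so, 51 of them called lower. Such genes entered the test only through the other group. Ctla2a, which encodes a cathepsin inhibitor and has a near-identical copy, was at 0 in the 4 controls and at 5.91, 5.96, 5.70 and 5.67 RPM with both treatments. Its means were 0.874 RPM with the siRNA alone, 0.267 RPM with isoproterenol alone and 5.81 ± 0.146 RPM with both (SD, n = 4). Plcl1, a phospholipase C-like protein gene, stood at 5.94 RPM with the siRNA alone, 0.269 RPM with isoproterenol alone and 6.20 ± 0.815 RPM with both. Ppbp, a chemokine precursor of platelets and macrophages, stood at 0.788 RPM with the siRNA alone, 0.601 RPM with isoproterenol alone and 4.69 ± 0.910 RPM with both. Of those at 0 with both treatments, Fam57a was at 6.19, 5.44, 7.44 and 6.43 RPM in the controls, Dctd, a deaminase of nucleotide synthesis, at 4.67, 2.90, 2.88 and 4.02 RPM, and Fancb, of DNA crosslink repair, at 3.15, 2.42, 3.18 and 3.31 RPM. Ctla2a and Ppbp were thus low with either treatment alone, while Plcl1 was at a similar level with the siRNA alone. These 6 genes were chosen after their values were seen.

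Genes of the RNA interference machinery, a list that includes the processing and export of miRNA precursors, were lower in 7 of 14 cases and higher in 2. Xpo5 fell from 18.2, 16.4, 15.7 and 16.6 RPM to 6.86, 9.07, 8.93 and 9.10 RPM (log2 −0.95 ± 0.11). The microprocessor genes Dgcr8 (−0.65 ± 0.09) and Drosha (−0.41 ± 0.11) and the nuclease gene Dicer1 (−0.29 ± 0.09) fell. The slicer Ago2 did not pass the test (−0.12 ± 0.06), and Tnrc6a, a partner of the Argonautes, rose from 87.6, 85.4, 84.5 and 92.3 RPM to 149.8, 142, 161 and 135 RPM (log2 0.78 ± 0.07).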
